A study of Mus musculus with 8 samples.

Results

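Chromatin loops that a knock-in mouse liver listed at zeitgeber time (ZT) 10 were followed into the livers of mice that carried a ΔhIDR form of the same protein. Of 52988 knock-in ZT10 loops, 345 (0.651%) were also listed in ΔhIDR replicate 1 and 140 (0.264%) in ΔhIDR replicate 2. In either replicate 475 (0.896%) were listed, and in both 10 (0.0189%). These 475 loops are the members described here. A knock-in loop counted as also listed when both of its anchors overlapped both anchors of 1 loop of the other library by at least 1 bp. Loops of nuclear chromosomes with a span (the distance between anchor midpoints) under 2 Mb were kept, and loops with an anchor between 3.1 and 3.3 Mb of chromosome 11 were left out.

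The assay was in-situ ChIA-PET on liver nuclei, in which crosslinked chromatin is cut, religated and pulled down with an antibody, here against the HA tag of REV-ERBα. Each loop carries a count of paired-end tags (PETs), the ligated fragments that join its anchors, and every file lists only loops of at least 3 PETs. The knock-in mice (REV-ERBa3HA/3HA) have the 3HA tag in the endogenous receptor and received no virus; they gave 1 library at ZT10 and 1 at ZT22. The other 4 libraries, all at ZT10, came from REV-ERBaf/f REV-ERBbf/f mice, in which both genes are floxed. These mice received AAV8-TBG-Cre together with AAV8-TBG-3HA-REV-ERBa-WT (2 libraries) or with AAV8-TBG-3HA-REV-ERBa-delhIDR (2 libraries). TBG is a hepatocyte promoter, so other liver cells of these mice keep their own, untagged receptor. Thus ΔhIDR and WT share the Cre, the loss of both receptors in hepatocytes and the viral source of the tagged protein, and the knock-in differs from both in all 3. The knock-in ZT10 library has no replicate, and the labels do not say whether the 2 libraries of a construct stem from different animals. The p-values therefore reflect library-to-library spread, which may be technical.

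REV-ERBα, encoded by Nr1d1, is a heme-binding nuclear receptor that represses transcription by recruiting the NCoR corepressor with the histone deacetylase HDAC3. It binds sites that hold the letters AGGTCA, either as a single copy with A and T bases before it or as a tandem pair called RevDR2. In liver it represses Arntl, the gene of the clock activator BMAL1, and genes of lipid metabolism, and its protein is abundant late in the day. The series is about a disordered region of this protein and its condensation, and the ΔhIDR form lacks, by its label, the stretch called hIDR.

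The kept loops held 304530 PETs in the knock-in ZT10 library and 58294 to 117530 in the 4 AAV libraries, which listed 17525 to 33625 loops each. Knock-in loops were shorter, with a median span of 35.1 kb against 111 to 149 kb in the AAV libraries. Their anchors were wider too, with a median of 1120 bp against 602 to 609 bp. Loops scarcely recurred between AAV libraries of 1 construct: 6 loops of ΔhIDR replicate 1 (0.0205%) matched a loop of replicate 2 (0.0256% of its loops), and 12 loops of WT replicate 1 (0.0685%) matched one of WT replicate 2 (0.0357%). Because of the floor of 3 PETs, a loop missing from a list may still have had up to 2 PETs, and is not shown to be absent.

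The sequences below belong to the promoters that tie these loops to genes. Each is 300 bases long, runs along the coding strand through the annotated start, and comes from RefSeq's table of GRCm38.p6 promoters. Capitals mark AGGTCA or its reverse complement TGACCT. That table has promoters for 17492 of the genes used and none for Per2. Among those genes, Fga alone had a promoter inside the shared part of a matched anchor in both ΔhIDR replicates. The Fga promoter has neither spelling. The other 4 make up 2 of the 8 pairs of promoters that matched loops joined. They were picked after the values were seen, because each pair holds a gene for a protein that hepatocytes secrete.
Fga, chr3:83025903-83026202, plus strand: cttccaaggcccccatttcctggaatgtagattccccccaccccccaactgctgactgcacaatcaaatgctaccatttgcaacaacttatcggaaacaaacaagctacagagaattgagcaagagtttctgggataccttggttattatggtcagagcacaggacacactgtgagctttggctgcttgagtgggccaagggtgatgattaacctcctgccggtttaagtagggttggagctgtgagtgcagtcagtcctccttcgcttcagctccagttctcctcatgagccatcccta
F7, chr8:13025784-13026083, plus strand: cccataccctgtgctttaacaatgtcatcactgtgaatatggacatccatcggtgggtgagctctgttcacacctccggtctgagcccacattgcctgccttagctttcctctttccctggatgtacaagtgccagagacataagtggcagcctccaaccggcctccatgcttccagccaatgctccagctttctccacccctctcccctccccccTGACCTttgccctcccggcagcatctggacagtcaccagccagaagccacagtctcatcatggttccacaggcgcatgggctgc
F10, chr8:13037058-13037357, plus strand: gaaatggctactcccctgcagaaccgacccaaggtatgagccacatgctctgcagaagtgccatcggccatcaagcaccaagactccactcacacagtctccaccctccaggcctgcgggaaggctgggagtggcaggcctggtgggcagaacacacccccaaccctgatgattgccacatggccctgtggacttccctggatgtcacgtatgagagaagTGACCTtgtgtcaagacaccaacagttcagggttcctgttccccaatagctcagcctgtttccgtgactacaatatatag
Smpd1, chr7:105554110-105554409, plus strand: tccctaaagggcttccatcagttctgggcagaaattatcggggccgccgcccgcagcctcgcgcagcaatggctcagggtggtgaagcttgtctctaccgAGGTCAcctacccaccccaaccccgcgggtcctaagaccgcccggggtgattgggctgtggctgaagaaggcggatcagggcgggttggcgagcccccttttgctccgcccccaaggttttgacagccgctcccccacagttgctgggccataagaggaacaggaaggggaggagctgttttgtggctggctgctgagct
Hpx, chr7:105600067-105600366, minus strand: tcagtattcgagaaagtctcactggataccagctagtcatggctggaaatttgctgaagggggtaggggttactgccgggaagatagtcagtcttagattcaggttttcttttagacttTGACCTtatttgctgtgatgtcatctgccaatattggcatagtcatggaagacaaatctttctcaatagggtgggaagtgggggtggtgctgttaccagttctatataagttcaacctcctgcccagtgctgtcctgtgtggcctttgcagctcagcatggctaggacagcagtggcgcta

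Short knock-in loops recurred with ΔhIDR more often than long ones, in each replicate. In ΔhIDR replicate 1 the share listed was 1.04% under 20 kb (170 of 16304), 0.697% from 20 to 50 kb, 0.377% from 50 to 100 kb, 0.276% from 100 to 500 kb and 0.0538% (1 of 1859) beyond 500 kb. In replicate 2 the same classes gave 0.442% (72 loops), 0.265%, 0.178%, 0.0882% and 0 of 1859, for which the upper Wilson bound is 0.206%. The 95% Wilson intervals of the shortest class (0.898 to 1.21% and 0.351 to 0.556%) lay above those of the 100 to 500 kb class (0.187 to 0.407% and 0.0447 to 0.174%) in both replicates. These intervals cover counting error only. In all, 81.9% of the 475 loops spanned under 50 kb, against 61.2% of the 52513 loops listed in neither replicate, and the median span was 20.0 kb against 35.2 kb. The longest loop that recurred spanned 535 kb.

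The share fell with distance for the WT construct too. WT replicate 1 listed 0.362% of the knock-in loops under 20 kb and 0.0993% of those from 100 to 500 kb. The ΔhIDR libraries' own loops gave a steeper slope from the other side: 3.37% of the loops under 20 kb in replicate 1 and 2.02% in replicate 2 matched a knock-in loop, against 0.255% and 0.105% from 100 to 500 kb.

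**Figure D1:**
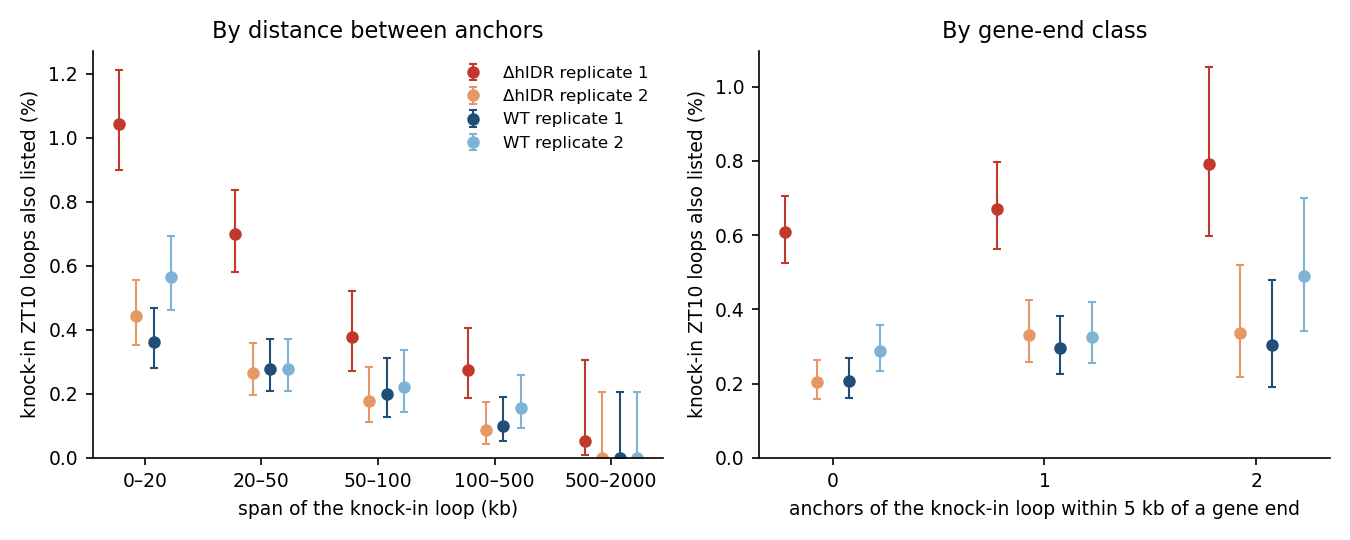
Share of knock-in ZT10 loops also listed in each AAV library (percent, points with 95% Wilson intervals), by the span of the knock-in loop on the left and by the number of its anchors within 5 kb of a gene end on the right. The share falls with span in all 4 libraries, from 1.04% to 0.0538% in ΔhIDR replicate 1, and runs from 0.609% to 0.792% over the gene-end classes there.

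Strong knock-in loops were also listed more often. Of the 27433 knock-in loops with 3 PETs, 61 (0.222%) were listed in ΔhIDR replicate 1 and 21 (0.0766%) in replicate 2. Of the 1852 loops with 20 PETs or more, 109 (5.89%) and 49 (2.65%) were listed. The classes between rose in order in both replicates, and the 475 loops had a median of 10 PETs against 3 for the loops listed in neither. They made up 0.896% of the knock-in loops and held 3.57% of their PETs.

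Anchor width moved with the PETs. The narrower anchor of a knock-in loop had a median of 800 bp in loops of 3 PETs and 3086 bp in those of 20 or more, and a wide anchor can meet more loops of another list. With knock-in anchors narrowed to at most 1 kb around their midpoints, the share of the strongest class was 2.54% in replicate 1 and 0.648% in replicate 2, against 0.211% and 0.0729% for loops of 3 PETs. So the rise with PETs kept its direction and was smaller. Within knock-in loops whose narrower anchor was over 1 and up to 2 kb wide, 0.311% of those with 3 or 4 PETs and 1.89% of those with 10 to 19 were listed in replicate 1, and 0.0933% and 0.667% in replicate 2. With WT the strongest class gave 3.19% and 2.86%.

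**Figure D2:**
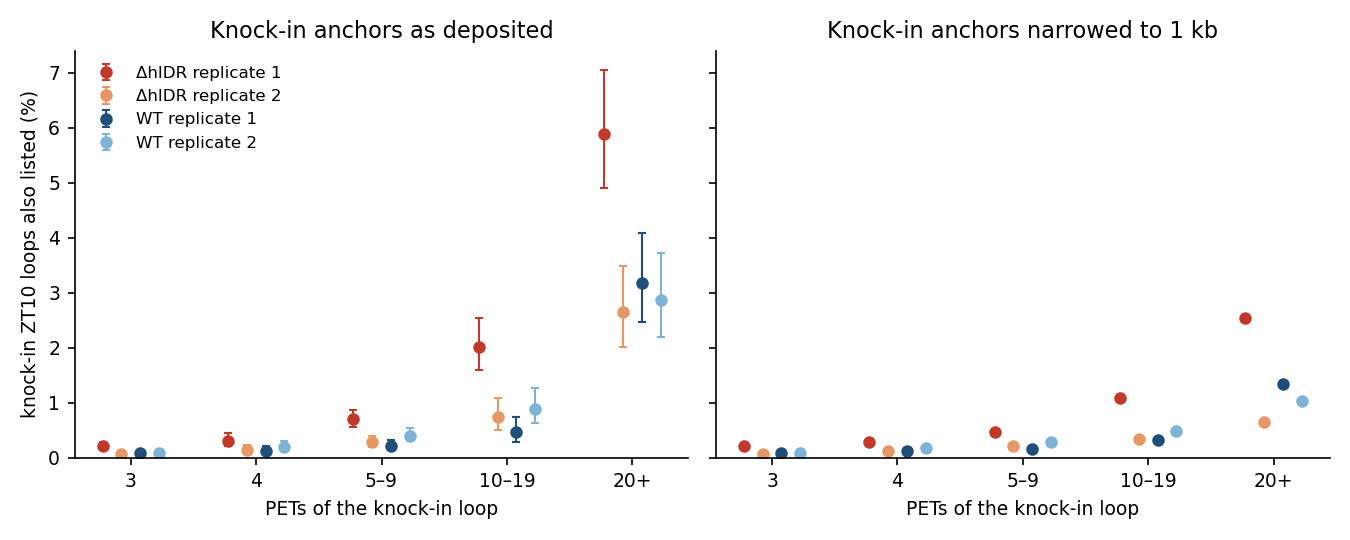
Share of knock-in ZT10 loops also listed in each AAV library (percent), by the PETs of the knock-in loop, with anchors as deposited on the left (95% Wilson intervals) and narrowed to at most 1 kb on the right. For loops of 20 PETs or more the share in ΔhIDR replicate 1 is 5.89% on the left and 2.54% on the right.

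The AAV loops that matched were weak in themselves, with ΔhIDR and with WT. In ΔhIDR replicate 1, 213 of the 331 matching loops (64.4%) had 3 PETs, close to the 61.3% of all its kept loops, and the highest had 8. In replicate 2, 63 of 133 (47.4%) had 3 PETs against 57.9% of all kept loops, and the highest had 10. In WT replicates 1 and 2, 73.3% and 76.3% of the matching loops had 3 PETs, against 76.9% and 68.8% of all kept loops. The highest there had 10 and 8 PETs. A strong knock-in loop was therefore listed at a few PETs with either construct.

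The gene-end classes differed less than the distance classes. Loops with no, 1 or 2 anchors within 5 kb of an end of a protein-coding gene were listed at 0.609%, 0.670% and 0.792% in replicate 1, with intervals that overlap. In replicate 2 the shares were 0.204%, 0.332% and 0.337%. There the interval for 1 anchor at a gene end (0.259 to 0.426%) overlapped that for none (0.158 to 0.264%) only at its edge. Of the 475 loops, 225 had no anchor at a gene end, 185 had 1 and 65 had 2. Both anchors lay in the window of 1 gene (its body plus 5 kb) in 45.9% of them, against 38.0% of the loops listed in neither, and in 22.7% against 20.5% neither anchor lay in any gene window.

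Loops also stood apart by the width of the AAV library's own anchors. Only 743 loops of ΔhIDR replicate 1 (2.54%) had both anchors at least 700 bp wide, yet 135 of them matched a knock-in loop (18.2%, Wilson interval 15.6 to 21.1%). They were 40.8% of all its matching loops. In replicate 2, 19 of 262 such loops matched (7.25%, 4.69 to 11.05%). Among loops whose narrower anchor was under 600 bp, 0.615% and 0.446% matched. The wide-anchored loops were short, with median spans of 17.6 and 19.1 kb, and among loops under 50 kb the shares of wide-anchored and narrow loops were 20.3% and 1.68% in replicate 1 and 7.46% and 1.23% in replicate 2.

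WT libraries held more wide-anchored loops, 1769 and 1919, of which fewer matched: 3.96% in WT replicate 1 and 3.39% in WT replicate 2. Both ΔhIDR values lay above both WT values, with means of 12.7% ± 7.72 (SD, n = 2) and 3.67% ± 0.403. The exact two-sided permutation test gave p = 0.333, the smallest that 2 against 2 libraries allow, so the design cannot reach 0.05. By count the order differed: 70 and 65 wide-anchored WT loops matched, fewer than the 135 of ΔhIDR replicate 1 and more than the 19 of replicate 2. The knock-in loops they matched were 0.281% and 0.0415% of all knock-in loops with ΔhIDR and 0.136% and 0.123% with WT, so the constructs did not separate on that scale (exact permutation p = 1.0). This class was described after its values were seen.

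**Figure D3:**
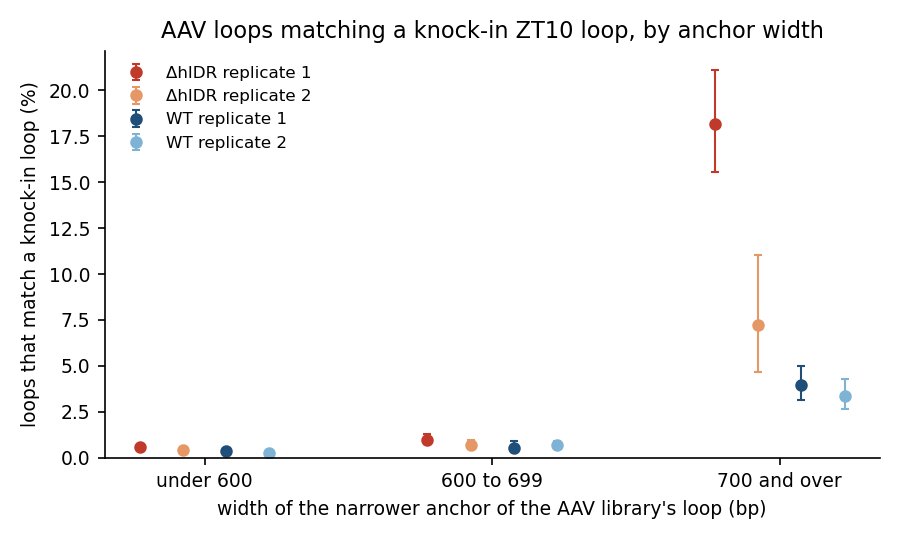
Share of each AAV library's loops that match a knock-in ZT10 loop (percent, with 95% Wilson intervals), by the width of the narrower of the loop's anchors in bp. Loops with both anchors at least 700 bp wide reach 18.2% and 7.25% with ΔhIDR and 3.96% and 3.39% with WT, and narrower loops stay at or under 0.987%.

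Over all loops, ΔhIDR and WT libraries did not separate. WT replicates 1 and 2 listed 132 (0.249%) and 172 (0.325%) of the knock-in loops, 297 (0.561%) in either and 7 (0.0132%) in both. ΔhIDR replicate 1, at 0.651%, lay above both, and ΔhIDR replicate 2, at 0.264%, lay between them. The mean was 0.458% ± 0.274 (SD, n = 2) with ΔhIDR and 0.287% ± 0.0534 with WT (exact two-sided permutation p = 0.667). As a share of each library's own loops, 1.13% and 0.568% of the ΔhIDR loops and 0.748% and 0.503% of the WT loops matched a knock-in loop (p = 0.667 in the same exact test). Without ΔhIDR replicate 1 the sign of both differences turned, to -0.0226 and -0.0570 percentage points. All 4 shares are taken against the same knock-in library, and the 2 constructs' lists of knock-in loops had 17 loops in common, 3.58% of the ΔhIDR list and 5.72% of the WT list.

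The 10 knock-in loops listed in both ΔhIDR replicates lay on 8 chromosomes. In the WT libraries 1 of the 10 was listed, where 0.561% of all knock-in loops were. They do not form 1 class of strength: 4 of them had at most 5 knock-in PETs and the strongest had 299. In only 4 of the 10 did the loops of the 2 ΔhIDR replicates also overlap each other. In the other 6 the replicates met different stretches of at least 1 knock-in anchor.

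The strongest of the 10 joined Fga to the far side of Fgb, genes for the α and β chains of fibrinogen, the clotting protein that hepatocytes secrete. It ran from chr3:83018753-83035266 to chr3:83045513-83056321, with a span of 23.9 kb and 299 knock-in PETs. It had 7 PETs in ΔhIDR replicate 1 and 4 in replicate 2, and was listed in neither WT library. The left ΔhIDR anchors, chr3:83025906-83026539 and chr3:83025827-83026425, both covered the start of Fga, whose promoter is printed above. The right ones, chr3:83053542-83054085 and chr3:83051863-83052396, lay apart from each other, beyond Fgb, and neither ΔhIDR loop matched once the knock-in anchors were narrowed. Fgg, for the γ chain, was touched only because the left knock-in anchor is 16513 bp wide: its own window had 1212 knock-in PETs and no listed loop in either ΔhIDR replicate. The strongest knock-in loop of all, with 374 PETs between Fgg and Fga, was listed in no AAV library. Another loop of the cluster, from Fgg to Fgb and Plrg1 with 258 knock-in PETs, went the other way. It was listed in WT replicate 1 at 3 PETs and in neither ΔhIDR replicate. In sum Fgb had 7 and 4 listed PETs with ΔhIDR and 9 and 0 with WT, and Fga had 7 and 13, and 3 and 0.

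Per2, which encodes a repressor of the clock's negative limb, held the only knock-in loop listed in all 4 AAV libraries. That loop, chr1:91439375-91447548 to chr1:91453840-91461756, spanned 14.3 kb with 1 anchor at a gene end. It had 127 PETs in the knock-in, 3 and 4 in ΔhIDR replicates 1 and 2, and 3 in each WT replicate. Its anchors were 8173 and 7916 bp wide, and with them narrowed no ΔhIDR loop matched.

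Loops whose ΔhIDR counterparts did overlap each other had at most 28 PETs in the knock-in. A 91.2 kb loop between Nudt4 and Eea1 on chromosome 10, chr10:95680212-95683929 to chr10:95772228-95774377, had 28 knock-in PETs and 3 in each ΔhIDR replicate. The left ΔhIDR anchors, chr10:95681205-95682205 and chr10:95681176-95682081, nearly coincided, as did the right ones. A 10.0 kb loop on chromosome 11, 21.96 kb before Hs3st3b1, a heparan sulfate sulfotransferase gene, had 14 knock-in PETs and again 3 and 3. Inside Gramd4, a gene of about 80 kb (79942 bp), 2 knock-in loops of 4 and 3 PETs overlapped at their left anchors. Both met the same ΔhIDR loops, of 7 PETs in replicate 1 and 3 in replicate 2. In Gramd4 the ΔhIDR replicate 1 loop thus held as many listed PETs as the 2 knock-in loops together (7), although that library's listed total is lower.

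The remaining 4 of the 10 were a loop in Bcar1 (5 knock-in PETs, then 5 and 3 with ΔhIDR), one from Smagp and Bin2 to Cela1 (5, then 6 and 3), one between Clec2d and Cd69 (39, then 3 and 3) and one between Nedd4l and Alpk2 (161, then 4 and 4). Bcar1 encodes an adhesion scaffold protein and Cela1 an elastase.

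The rule for naming loops, which adds the 10 strongest matches of each replicate, gave 24 loops in all. Prkce, for a protein kinase C, had 251 knock-in PETs and 3 in ΔhIDR replicate 1. Hopx, for a homeodomain-only protein, had 177 and 4, and Insig2, for a protein that holds back sterol-regulated lipid synthesis, had 144 and 4. In replicate 2, Paqr9, for a membrane receptor of the progestin and adipoQ family, stood apart with 10 PETs beside 117 in the knock-in. The Ugt1a cluster, whose genes encode enzymes that conjugate bilirubin and drugs, had 155 and 3. With anchors narrowed, 8 of the 17 named loops listed in replicate 1 and 6 of the 17 listed in replicate 2 kept a match.

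**Figure D4:**
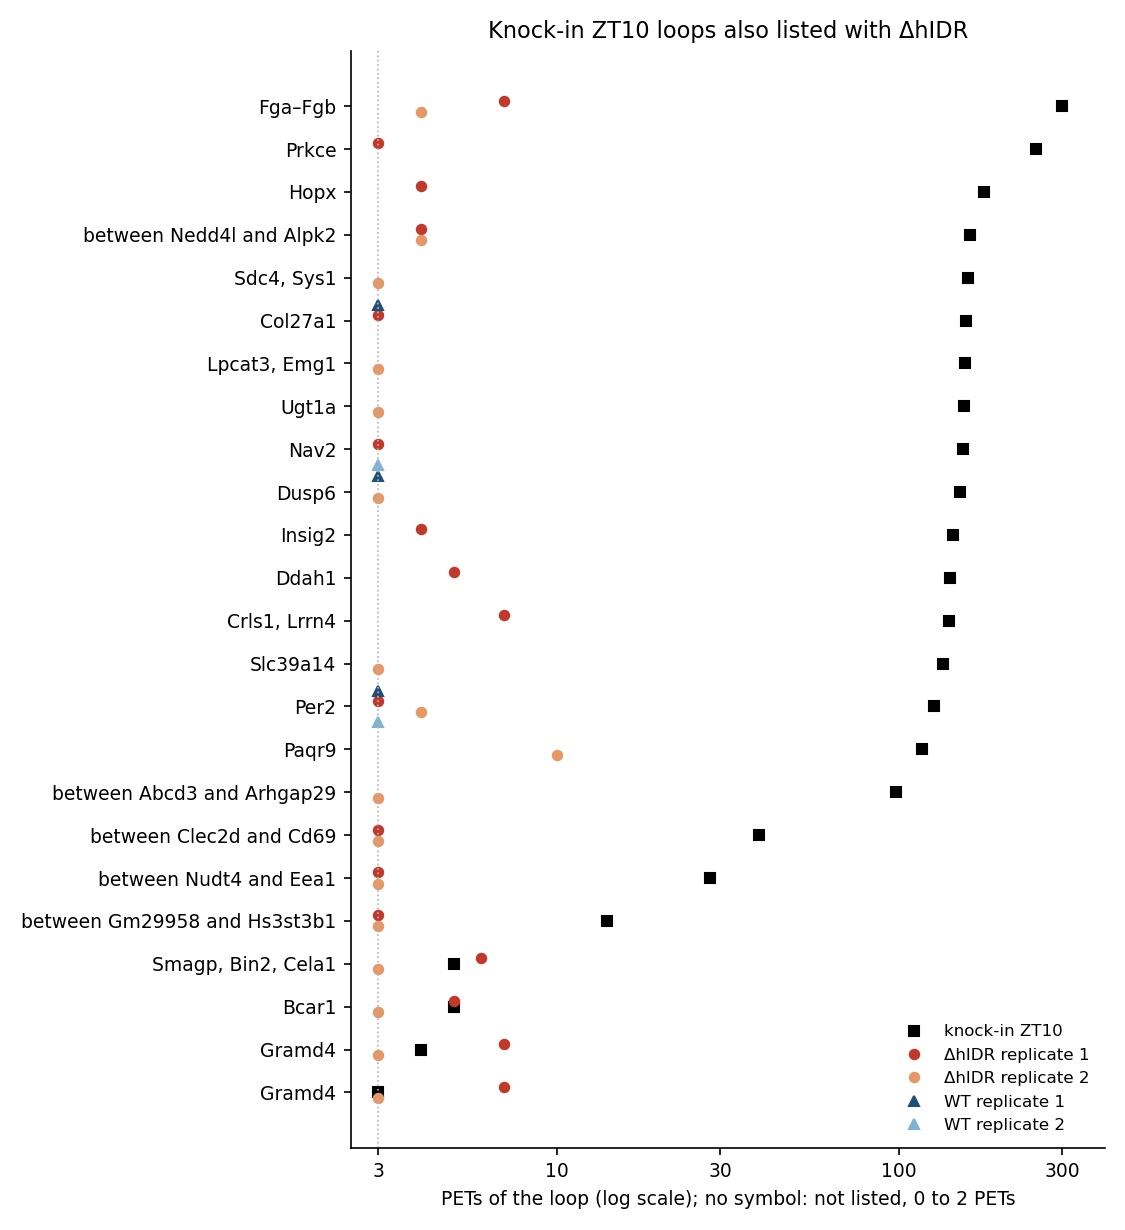
PETs on a log axis for the 24 named knock-in ZT10 loops, 1 row each and ordered by knock-in PETs, with Gramd4 holding 2 rows. Black squares are the knock-in, circles the ΔhIDR replicates and triangles the WT replicates; a library without a symbol did not list the loop. Loops of 98 to 299 knock-in PETs sit at 3 to 10 PETs with ΔhIDR.

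Most strong knock-in loops were not listed with ΔhIDR. Among the 100 strongest, each of at least 84 PETs, 13 were listed in each ΔhIDR replicate, 3 of them in both, and 17 and 12 in the WT replicates. Unlisted in all 4 AAV libraries were a 50.5 kb loop at Slc34a2 (289 PETs), for a phosphate transporter, and a loop from Nr1d1 to Msl1 (184 PETs), at the gene of REV-ERBα itself. A loop of 173 PETs on chromosome 15, outside any gene window, was listed in WT replicates 1 and 2 with 10 and 8 PETs and in neither ΔhIDR replicate.

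Matched loops rarely joined promoters. In ΔhIDR replicate 1, 6 knock-in loops had a promoter in the shared part of both anchors, and in replicate 2 there were 2, against 0 in each WT library (exact two-sided permutation p = 0.333, the smallest possible). F7 and F10, for coagulation factors VII and X, were joined by a loop of 15 knock-in PETs and 3 PETs in replicate 1 over 10.9 kb. Smpd1, for acid sphingomyelinase, and Hpx, for the heme scavenger hemopexin, were joined over 45.5 kb by 8 and 3 PETs. The other replicate 1 pairs were Fastkd1 with Ppig, Tmem60 with Rsbn1l, and the zinc finger genes Zfp874a with Zfp874b and Zfp874b with Zfp58. In replicate 2 they were Isoc2b with Isoc2a and Ilk and Rrp8 with Tpp1. When the whole knock-in anchors were counted, 2.32% and 2.86% of the loops listed in the ΔhIDR replicates and 1.52% and 1.16% of those listed in the WT replicates had a promoter in both, against 0.968% of all knock-in loops. These shares rest on 8, 4, 2 and 2 loops, and their Wilson intervals overlap between the constructs. The narrower anchor of matched loops was wider, with a median of 1700 and 1797 bp for the loops listed in the ΔhIDR replicates against 991 bp for all knock-in loops, and the part of width in these shares was not tested.

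Each of F7, F10, Smpd1 and Hpx holds AGGTCA once on either strand within the bases printed above. Of the 16 genes in the 8 pairs, 5 did, the last being Rsbn1l. The letters AGGTCA were no more common in the 54 promoters within the shared part of a matched ΔhIDR anchor (12.96%) than in all 21263 promoters of the table (14.7%). The RevDR2 form, a pair of AGGTCA copies with 2 bases between them on either strand, was in none of the 21263. The E-box CACGTG, bound by the clock activators, was in 9 of the 44 such promoters of replicate 1 (20.5%) and in 1 of the 11 of replicate 2 (9.09%). It was in 9.09% of the 22 within matched WT anchors, in 10.3% of the 4003 within any knock-in ZT10 anchor and in 7.84% of all promoters. Several genes have overlapping promoters in the table, so these are counts of windows and not of independent genes. A match of letters is not a bound site.

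Genes were followed too. A gene was listed in a library when an anchor of a loop touched its body plus 5 kb. Of 21887 protein-coding genes, 50.5% were listed in ΔhIDR replicate 1 and 43.2% in replicate 2. Of the 10013 genes with a knock-in ZT10 loop, 6571 (65.6%) and 5620 (56.1%) were listed, against 37.7% and 32.2% of the other 11874 genes. WT replicates 1 and 2 listed 36.6% and 51.1% of all genes, with 48.9% and 64.1% of the knock-in genes against 26.2% and 40.1% of the others. Listed in both ΔhIDR replicates were 42.6% of the knock-in genes and 18.7% of the others.

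Gene length moved with this. Knock-in genes had a median length of 27.2 kb and the others 11.1 kb. Among genes of up to 10 kb, 39.5% with a knock-in loop and 20.3% without one were listed in replicate 1, and 27.9% and 16.3% in replicate 2. Among genes over 100 kb the gap was narrow, 96.7% against 91.0% in replicate 1 and 94.1% against 85.9% in replicate 2. The knock-in genes were thus listed more often in each of the 4 length classes. Of the 2527 genes with at least 30 knock-in PETs, 356 were listed in neither ΔhIDR replicate, with a median length of 11.8 kb.

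**Figure D5:**
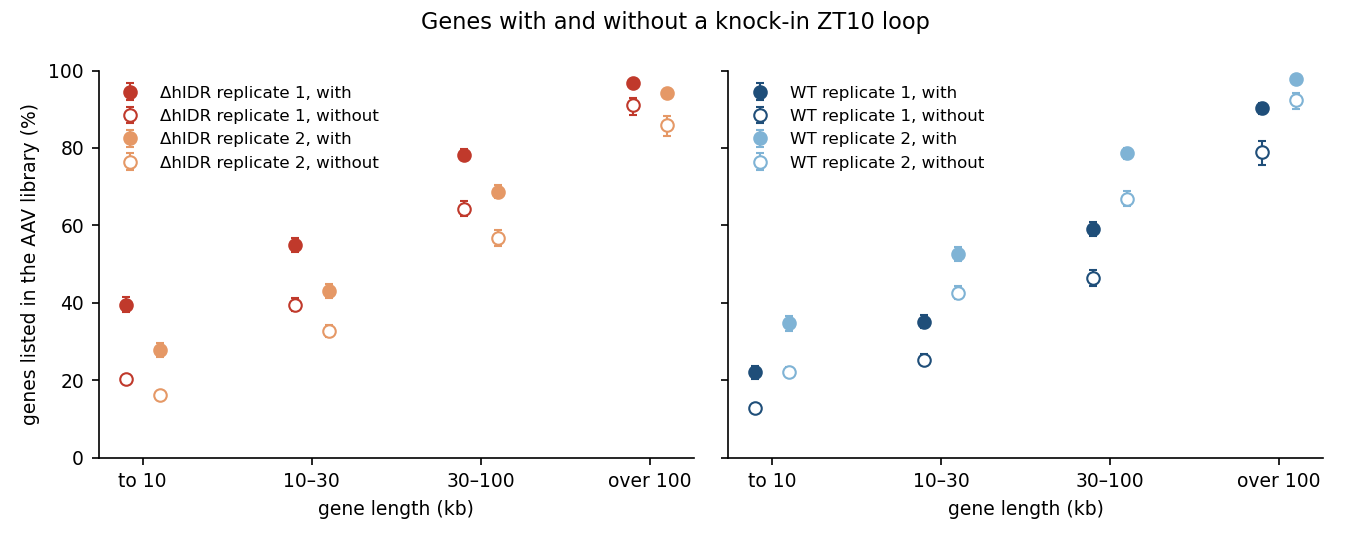
Share of protein-coding genes listed in each AAV library (percent, with 95% Wilson intervals), by gene length in kb, for genes with a knock-in ZT10 loop (filled) and without one (open). Filled points lie above open ones in every class, and the gap in ΔhIDR replicate 1 goes from 39.5% against 20.3% to 96.7% against 91.0%.

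Far fewer genes were touched by a matched loop. A knock-in loop also listed in ΔhIDR replicate 1 touched 323 of the 10013 genes (3.23%), and one listed in replicate 2 touched 154 (1.54%). The WT values were 121 (1.21%) and 167 (1.67%). A matched loop touched 40 genes (0.399%) in both ΔhIDR replicates and 18 (0.180%) in both WT replicates. Only 10 of the 40 were touched by 1 knock-in loop matched in both ΔhIDR replicates, and the other 30 by different loops. Of the 40, 9 were Ugt1a genes that share 1 stretch of DNA, and 4 lay at the fibrinogen cluster. Beyond these the 40 held Mat1a, for the liver's S-adenosylmethionine synthetase, Acsl1, which activates long-chain fatty acids, Aqp9, a glycerol channel, Zbtb16, a transcriptional repressor, and Insig2. All 5 were matched on different loops in the 2 replicates: the loops in Mat1a had 22 knock-in PETs in replicate 1 and 105 in replicate 2, and those in Insig2 144 and 3. These genes of the 40 were chosen after their values were seen.

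Of 19 core clock genes, some of which REV-ERBα is known to control, 18 had a knock-in loop. In each ΔhIDR replicate 13 of the 19 were listed (68.4%), where 65.6% and 56.1% of all knock-in genes were. The WT replicates listed 11 and 10 of the 19 (57.9% and 52.6%), where 48.9% and 64.1% of all knock-in genes were. A matched knock-in loop touched 4 of the 18 in either ΔhIDR replicate (Per2, Npas2, Nfil3 and Ciart), against 4.36% of all 10013 knock-in genes. By replicate it touched 3 and 2 of the 18 with ΔhIDR and 3 and 3 with WT. The WT genes were Npas2, Per2 and Nr1d1 in replicate 1 and Npas2, Per2 and Rora in replicate 2. The clock genes had a median of 90 knock-in PETs, and the share of genes matched rose with knock-in PETs, from 0.429% at 3 to 9 PETs to 14.95% at 100 to 299 in ΔhIDR replicate 1. Npas2, a partner of BMAL1, had 558 knock-in PETs and 14 and 17 with ΔhIDR, against 26 and 32 with WT. The WT values lay above the ΔhIDR values without overlap, but the difference did not pass (log2 ΔhIDR over WT -1.16 ± 0.58 SE, adjusted p = 0.999 in edgeR's quasi-likelihood test). Of its matched knock-in PETs, 0 and 90 were in loops listed with ΔhIDR and 190 and 149 in loops listed with WT. Per2 had 15 and 11 listed PETs with ΔhIDR and 6 and 3 with WT, again without overlap and short of the threshold (log2 1.11 ± 1.14 SE, edgeR adjusted p = 0.999). Nfil3, for a repressor of D-box genes, and Ciart, for a repressor of CLOCK and BMAL1, each kept 1 loop in replicate 1, of 15 and 39 knock-in PETs.

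Other clock genes varied. Nr1d1 had 265 knock-in PETs and no listed loop in either ΔhIDR replicate, with 5 and 3 PETs in the WT replicates. In the AAV mice the Nr1d1 locus is floxed, and its part in that value was not tested. Bhlhe40, for a repressor that competes at E-boxes, had 300 knock-in PETs, then 0 and 6 with ΔhIDR and none with WT. Hlf, for a D-box activator, had 321, then 3 and 4 with ΔhIDR and 3 and 3 with WT. Arntl had 243, then 21 and 18 with ΔhIDR and 3 and 9 with WT, with none of its knock-in loops matched in any AAV library. Rora, for a receptor that activates from the same sites, is a long gene with 422 knock-in PETs, then 88 and 55 with ΔhIDR and 44 and 43 with WT. Clock had 3 knock-in PETs, then 6 and 16 with ΔhIDR and 6 and 15 with WT, and Per3 had 0, then 6 and 3 with ΔhIDR and 3 and 0 with WT. Per1, Dbp, Bhlhe41 and Nr1d2 had 23, 17, 20 and 3 knock-in PETs and at most 6 in any AAV library.

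Metabolic and liver gene lists are given by how many members a matched knock-in loop touched, where 4.36% of all knock-in genes were touched in either ΔhIDR replicate. That share does not allow for knock-in strength. List medians ran from 49 knock-in PETs (acute phase) to 163.5 (glucose), with 127.5 for the transcription factors, while 5123 of the 10013 knock-in genes had 3 to 9. Genes of 100 to 299 knock-in PETs were touched at 14.95% in ΔhIDR replicate 1 and 8.01% in replicate 2, against 0.429% and 0.0195% at 3 to 9. The part of strength in the list counts was not tested. Counts of listed members stand beside 65.6% and 56.1% of all knock-in genes listed in ΔhIDR replicates 1 and 2. Of 25 genes of lipogenesis and sterol control, all 25 had a knock-in loop, 17 and 16 were listed in the ΔhIDR replicates and 4 had a matched loop: Insig2, Lpin1, Elovl6 and Dgat2. Lpin1, for a phosphatidate phosphatase, kept a loop of 54 knock-in PETs at 5 PETs in replicate 1 and at 5 in WT replicate 1. Of the 21 cholesterol and bile acid genes 15 and 9 were listed and 0 had a matched loop with ΔhIDR. Of 18 glucose genes 14 and 12 were listed, and Fbp1, a gluconeogenic enzyme, and Foxo1 kept 1 loop each, in different replicates. Of 19 fatty acid oxidation genes 11 and 9 were listed and 2 had a matched loop, Acsl1 and Ppara. Of 18 genes of xenobiotic metabolism 9 and 5 were listed and 1 had a matched loop, Ugt1a1. Among 20 liver transcription factors 15 and 13 were listed and 4 had a matched loop in either ΔhIDR replicate (Nr5a2, Onecut2, Cebpa, Zbtb16). Of 22 genes of secreted hepatocyte proteins 11 and 11 were listed and 4 were touched. These were Ttr and the fibrinogen genes Fga, Fgb and Fgg, the last 3 by the same wide-anchored loop. Of 19 acute phase genes 1 was touched, Hpx. These counts join both ΔhIDR replicates. By replicate, the lipogenesis list had 4 and 1 members touched with ΔhIDR and 1 and 0 with WT. The cholesterol list had 0 and 0, and 0 and 1, and the glucose list 1 and 1, and 2 and 3. The transcription factors had 3 and 2, and 0 and 0, and the secreted proteins 4 and 3, and 3 and 0. The acute phase genes had 1 and 0, and 0 and 3. The fatty acid oxidation list had 2 and 1, and 1 and 1, and the xenobiotic list 1 and 1, and 0 and 0. In either WT replicate 2.70% of all knock-in genes were touched. The acute phase genes are short, with a median length of 4.26 kb, and 7 and 4 of them were listed at all.

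Markers of other liver cells were read in the same way. Of 8 hepatocyte markers 7 had a knock-in loop, with 662 PETs in sum, then 26 and 10 with ΔhIDR and 3 and 16 with WT, and Ttr and Tat had a matched ΔhIDR loop. The 8 Kupffer cell markers had none, but 4 and 2 of them were listed in the ΔhIDR replicates, with 26 and 10 PETs. The WT replicates listed 3 and 6 of them, with 9 and 47 PETs. Of all genes without a knock-in loop 37.7% and 32.2% were listed with ΔhIDR and 26.2% and 40.1% with WT. The 8 endothelial markers had 127 knock-in PETs, then 62 and 44 with ΔhIDR and 30 and 53 with WT, and the 8 stellate markers had 23, then 85 and 36 with ΔhIDR and 22 and 59 with WT. The 6 cholangiocyte markers had 32, then 3 and 31, and 12 and 23, and the 6 lymphoid markers had 28, then 28 and 32, and 4 and 30. Of the markers other than the hepatocyte ones only Pecam1, for an endothelial adhesion protein, kept a matched ΔhIDR loop, with 2 knock-in loops of 22 PETs in sum in replicate 1. Loops at marker genes of other cell types were listed in every AAV library, and their part in the results was not tested.

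Some genes had many knock-in PETs and no matched ΔhIDR loop. Dapk1, for a death-associated kinase, had 927 knock-in PETs in 109 loops, then 26 and 18 with ΔhIDR and 10 and 14 with WT. Itpr1, for a calcium channel of the endoplasmic reticulum, had 820, then 34 and 30 with ΔhIDR and 22 and 21 with WT. Irs2, for an adaptor of the insulin receptor, had 528, then 9 and 3 with ΔhIDR and 6 and 0 with WT. Rnf125, for a ubiquitin ligase, had 561 knock-in PETs, then 0 and 11 with ΔhIDR and 12 and 9 with WT, and 453 of its knock-in PETs were in loops listed in WT replicate 1. Adra1b, for an adrenergic receptor, likewise had no loop matched with ΔhIDR and loops with 158 and 205 knock-in PETs in sum matched in the WT replicates. These genes were chosen for having no ΔhIDR match, so their WT matches are no comparison of the constructs. Dapk1, Itpr1, Rnf125 and Adra1b were tested and not called (adjusted p = 0.999 each in edgeR's quasi-likelihood test). Irs2 was not among the genes tested.

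Across genes, ΔhIDR and WT were not told apart by the test. Of 2769 genes tested on their listed PETs, edgeR's quasi-likelihood test with Benjamini-Hochberg adjustment called 0 higher and 0 lower with ΔhIDR (0% each way), with 70 genes at an unadjusted p under 0.05 and a smallest adjusted p of 0.999. DESeq2 also called 0, with 86 at an unadjusted p under 0.05. Without WT replicate 1 edgeR called 1 gene, and without WT replicate 2 it called 4. Replicates of 1 construct varied widely, with a biological coefficient of variation of 0.590 and a correlation of log2 values across genes of 0.335 for ΔhIDR and 0.327 for WT, where genes are not independent. A call of 0 genes at this spread does not show that the constructs act alike.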

How the data were processed

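Each deposited file lists, for 1 in-situ ChIA-PET library of mouse liver, pairs of anchors and the PET counts joining them. The authors deposited these as raw counts on mm10, per the submitters' processing notes, neither normalized nor pooled. The sources used here do not give the caller, the duplicate filter or whether starts count from 0. The lowest count is 3, so listed sums are not the sequencing depth. Of 8 samples, 6 were used and 2 anti-CTCF samples were not analysed here.

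The members and gene lists were chosen with earlier results of these data known. Loops were matched in Python 3.11.15 (pandas 2.3.3, numpy 2.4.6, scipy 1.17.1). Spans and PET classes came from the deposited loops. Gene windows and gene ends used RefSeq's GRCm38.p6 genes, whose table carries no strand, so both ends counted. All 225 entries of 15 gene lists were found, 1 through a synonym. PETs per gene were compared with edgeR 4.0.16 (TMM, filterByExpr, threshold 0.05), with DESeq2 1.42.0 as an alternative. The matching and the edgeR step were tested on simulated data. At the spread of these libraries the edgeR step did not recover the changes put into the simulated counts. No conclusion can therefore be drawn from genes that were not called. Whole-library shares had exact permutation tests. Unlisted loops entered edgeR as 0.

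Named loops were those listed in both ΔhIDR replicates and the 10 with most knock-in PETs matched in each. Named genes were the 15 with most knock-in PETs in matched loops, the core clock genes, 2 leading members of each other list, and the 10 with most knock-in PETs and no match. Some of these are given only as counts. Groups came from the sample titles.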

Additional observations from a re-analysis of the deposited data

How the results depend on the processing

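The share of knock-in loops listed in ΔhIDR replicates 1 and 2 stayed within its counting interval with all spans or with the chromosome 11 region kept in. It moved to 10.3% and 5.64% with anchors extended by 5 kb, to 3.52% and 1.75% by pairs of 10 kb bins, to 1.57% and 0.654% for knock-in loops of at least 5 PETs, to 0.234% and 0.140% for AAV loops of at least 4 PETs, to 0.281% and 0.0415% for AAV anchors at least 700 bp wide, and to 0.419% and 0.149% with knock-in anchors narrowed to 1 kb, which was chosen after seeing the data. ΔhIDR replicate 1 lay above replicate 2 under each of these. The 10 knock-in loops listed in both ΔhIDR replicates became 2 for AAV loops of at least 4 PETs and 3 for AAV anchors at least 700 bp wide. They became 5 with narrowed knock-in anchors and 8 for knock-in loops of at least 5 PETs. The count was 10 with all spans, 19 with the chromosome 11 region kept in, 42 by bins and 484 with extended anchors. The difference between ΔhIDR and WT kept its sign under these settings, but leaving out 1 library moved it from -0.0226 to 0.364 percentage points of the knock-in loops and from -0.0570 to 0.505 of the library's own loops; both negative values are without ΔhIDR replicate 1.

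The share of knock-in genes listed in replicates 1 and 2 was 62.0% and 52.8% with windows of 2 kb, 84.0% and 74.0% with 25 kb, 45.6% and 34.9% at gene ends only, 75.4% and 69.1% with all spans, and 40.7% and 35.2% for AAV loops of at least 4 PETs, each above the share of the other genes. In edgeR the replicate block, taken from numbers whose libraries did not deviate together (correlation -0.0043 across genes), also called 0 genes; leaving out 1 library gave 0 to 4 calls. The cause of these changes was not tested. The floor of 3 PETs limits every comparison: a loop of 2 PETs with ΔhIDR reads as unlisted.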
